A study of Mus musculus with 12 samples.

Results

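Serotonin receptor genes were read out in sensory neuron fractions of mouse ganglia. The 10 genes described are Htr1a, Htr1b, Htr1d, Htr1f, Htr2a, Htr2b, Htr3a, Htr3b, Htr4 and Htr7, chosen by symbol, and all 10 were found among the 22609 genes that each library lists. The ganglia were dorsal root ganglia (DRG), which serve trunk and limbs, and the trigeminal ganglion (TG), which serves the face and the cranial vessels. They came from naive mice, and no group carried an edited allele or received a treatment. The labels give the strain as C57BL and the age as 3-4 months, while the study's methods name C57BL/6J mice and give a younger age. Each sex and ganglion gave a group of 3 libraries, 4 groups in all and 6 libraries per ganglion. The study's methods place the females in estrus and the DRG at lumbar levels. How many animals went into a library is not stated, and p-values measure only the spread between these libraries, which may in part be technical. The neuron fraction was made by spinning dissociated cells on a Percoll density gradient, so it is enriched for neurons and is not a pure population.

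Serotonin acts on sensory neurons through receptors of different kinds. Htr3a and Htr3b encode subunits of a cation channel that serotonin opens directly, and all other members encode G protein-coupled receptors. Receptors of the Htr1 group couple to Gi/o proteins and lower cyclic AMP, those of the Htr2 group couple to Gq and phospholipase C, and Htr4 and Htr7 couple to Gs and raise cyclic AMP. Triptans, drugs taken to stop a migraine attack, are agonists of the receptors encoded by Htr1b and Htr1d, and many also bind the receptor encoded by Htr1f. These receptors sit on trigeminal afferents, where they are known to restrain release of the neuropeptide CGRP.

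The reads assigned to genes ranged from 7511765 to 15396090 per library, with a median of 11663522. A count of 3 reads corresponds to 0.195 to 0.399 CPM (reads per 1000000 reads in genes) in these libraries, and such a floor covers counting error only. Levels are given as CPM scaled between libraries by the TMM method. All 8 neuron markers had reads in all 12 libraries, with a summed level of 4846 to 8798 CPM. Markers of other cells were present too. The summed level was 1252 to 2679 CPM over 5 satellite glia markers, 1784 to 2781 CPM over 5 markers of myelinating Schwann cells, 586 to 1662 CPM over 5 fibroblast markers, 144 to 462 CPM over 5 endothelial markers, 55.3 to 318 CPM over 5 macrophage markers, 205 to 529 CPM over 6 mural cell markers and 144 to 283 CPM over 5 mast cell markers, of which Kit held most and is also made by neurons. Of the 4 erythroid markers, 3 were at 0 in all 12 libraries, and the sum was 2.80 to 20.3 CPM. In such bulk fractions, fewer cells of a type and less RNA per cell cannot be told apart.

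The channel subunit Htr3a stood at the top of the receptor genes in both ganglia. Levels of different genes were compared as RPKM, here the scaled CPM per kilobase of annotated exons. The median over the 12 libraries was 103 RPKM for Htr3a, 23.0 RPKM for Htr1d, 17.0 RPKM for Htr3b, 9.88 RPKM for Htr4, 5.49 RPKM for Htr2a, 4.85 RPKM for Htr1b, 3.91 RPKM for Htr1f, 3.68 RPKM for Htr7 and 2.36 RPKM for Htr1a. Htr2b had a median of 0. Htr3a was above Htr1d in 12 of 12 libraries and held 43.0% to 69.6% of the summed RPKM of the 10 genes. Htr4 was above Htr2a in 12 of 12 libraries.

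The order of the other neighbours was less firm. Htr1d was above Htr3b in 8 of 12 libraries, which were 6 of 6 TG libraries and 2 of 6 DRG libraries. These DRG libraries were female DRG 1 and female DRG 2. In female DRG 3 the genes were nearly level (16.9 RPKM for Htr1d and 17.1 RPKM for Htr3b), and in all male DRG libraries Htr3b was higher. Htr3b was above Htr4 in 9 libraries, Htr2a above Htr1b in 8, Htr1b above Htr1f in 7 and Htr1f above Htr7 in 7. Htr1f was above Htr7 in 6 of 6 TG libraries but in only 1 of 6 DRG libraries. Over all 12 libraries, Htr2a, Htr1b, Htr1f and Htr7 therefore kept no fixed order. The order of Htr1f and Htr7 differed between TG and most DRG libraries.

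**Figure D1:**
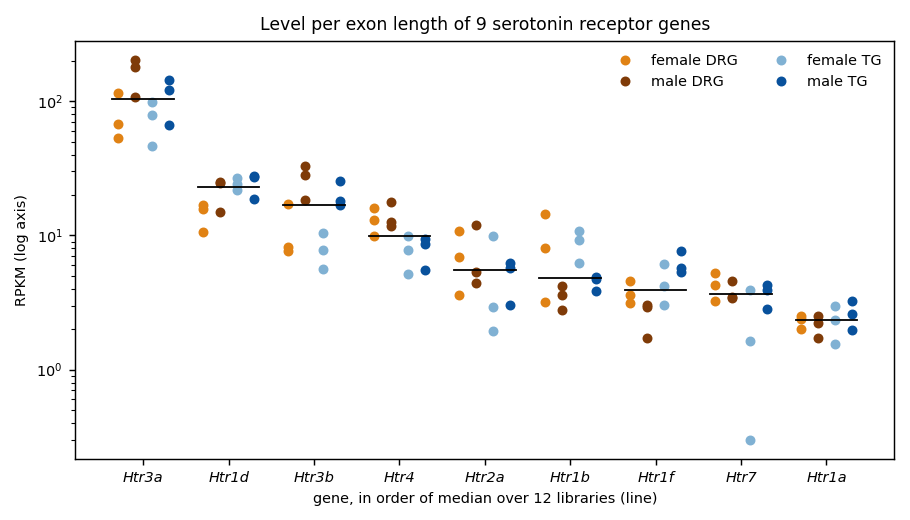
RPKM on a log axis of 9 serotonin receptor genes, with a point for each of the 12 libraries, coloured by group, and a line at the median. Htr3a lay highest with a median of 103 RPKM and Htr1a lowest with 2.36 RPKM, and Htr2b is left out because 11 of its 12 values were 0.

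The triptan target genes differed widely in level. Htr1d lies on chr4:135979439-136000313 on the plus strand of mm9, Htr1f on chr16:64924555-65105610 on the minus strand and Htr1b on chr9:81524950-81526222 on the minus strand. In the annotation used here, Htr1b is a single exon of 1273 bases that overlaps D430036J16Rik on the opposite strand. The study's methods describe strand-specific libraries, but the annotation and strand setting of the counting are not given in the sources used here. How reads in the overlap of Htr1b and D430036J16Rik were counted is therefore not known. The RefSeq start of Htr1b lies 1217 bases upstream of this model, so its RPKM, its rank and its ratio to Htr1d depend on the exon model used. In RPKM, Htr1d was 0.736 to 6.91 times Htr1b, and Htr1d was the lower gene of the pair in female DRG 1 and in no other library. Htr1d was 2.33 to 14.5 times Htr1f.

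Promoter letters of the triptan targets are shown because the 3 genes encode receptors for the same drugs yet differed in level and in which libraries were high. They come from RefSeq (GRCm38.p6), from 250 bases before to 50 bases after the start, and each matched the mm9 genome exactly at 1 place, given here in mm9. The Htr1b stretch is chr9:81527390-81527689 on the minus strand, the Htr1d stretch is chr4:135979189-135979488 on the plus strand, and the Htr1f stretch is chr16:65105561-65105860 on the minus strand. For Htr1d, RefSeq lists 2 starts, and the start shown is that of the mm9 gene model. The Htr1b start lies 1217 bases upstream of the mm9 gene model. Capitals mark the letters of 3 short motifs on either strand. The GC box was searched as GGGCGG. The box named for its letters was searched as CCAAT. The TATA box was searched as TATAAA, and no marked stretch overlaps another.
Htr1b: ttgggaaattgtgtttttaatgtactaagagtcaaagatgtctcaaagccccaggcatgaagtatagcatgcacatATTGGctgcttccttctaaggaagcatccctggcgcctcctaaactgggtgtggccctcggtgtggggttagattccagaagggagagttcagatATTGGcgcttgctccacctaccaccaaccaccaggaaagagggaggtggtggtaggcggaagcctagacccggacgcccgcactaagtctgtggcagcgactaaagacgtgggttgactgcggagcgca
Htr1d: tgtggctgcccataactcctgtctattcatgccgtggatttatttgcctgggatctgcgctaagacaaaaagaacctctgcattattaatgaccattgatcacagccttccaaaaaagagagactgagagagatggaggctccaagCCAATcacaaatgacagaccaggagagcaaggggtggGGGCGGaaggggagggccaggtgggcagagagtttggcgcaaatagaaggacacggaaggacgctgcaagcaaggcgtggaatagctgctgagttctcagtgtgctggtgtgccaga
Htr1f: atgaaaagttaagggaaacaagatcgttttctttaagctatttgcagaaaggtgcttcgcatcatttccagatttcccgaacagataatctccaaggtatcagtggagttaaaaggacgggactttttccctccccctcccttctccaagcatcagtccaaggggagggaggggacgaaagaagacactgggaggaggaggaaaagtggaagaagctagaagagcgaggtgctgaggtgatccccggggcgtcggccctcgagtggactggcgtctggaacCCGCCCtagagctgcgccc
The Htr1b stretch holds CCAAT at 2 places, the Htr1d stretch holds 1 GC box and CCAAT at 1 place, and the Htr1f stretch 1 GC box. The same window at the other Htr1d start, which lies downstream, holds 4 GC boxes and no CCAAT. None of the stretches holds TATAAA, which 13.6% of the 32851 promoters searched hold. GGGCGG is found in 35.7% of them and CCAAT in 37.4%. These letters are a description of the sequence, and binding was not measured.

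Htr1d, the more abundant triptan target, leaned toward TG. Its level was 33.9, 50.1 and 54.2 CPM in female DRG, 79.5, 78.1 and 48.2 CPM in male DRG, 85.8, 77.0 and 70.1 CPM in female TG, and 89.2, 87.1 and 59.7 CPM in male TG. All female TG libraries were above all female DRG libraries, while the male ranges overlapped. On the log2 scale TG over DRG was 0.47 ± 0.20 (SE; 95% interval 0.06 to 0.89), with an adjusted p of 0.452 by edgeR's quasi-likelihood test with Benjamini-Hochberg adjustment over 14829 genes. It did not pass.

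Htr1f showed the largest TG estimate among the members. Its level was 11.4, 9.07 and 7.87 CPM in female DRG, 4.30, 7.41 and 7.64 CPM in male DRG, 10.6, 15.3 and 7.57 CPM in female TG, and 13.3, 14.3 and 19.3 CPM in male TG. The 3 male TG libraries were above all 6 DRG libraries, and the female TG libraries overlapped them. The TG over DRG estimate was a log2 fold change of 0.76 ± 0.31 (SE; 95% interval 0.10 to 1.41), with an adjusted p of 0.442 by edgeR.

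Htr1b did not separate the ganglia. It gave 18.3, 4.09 and 10.2 CPM in female DRG, 4.58, 5.35 and 3.54 CPM in male DRG, 11.8, 13.7 and 7.96 CPM in female TG, and 6.28, 6.08 and 4.91 CPM in male TG. TG over DRG gave a log2 fold change of 0.20 ± 0.39 (SE; 95% interval -0.61 to 1.01; adjusted p = 0.985 by edgeR). It ran from 0.0038 without female DRG 2 to 0.50 without female DRG 1. Its difference between the sexes, which edgeR called in neither ganglion, is described further on.

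Htr1a, the remaining Gi/o-coupled member and the autoreceptor of serotonin neurons in the brainstem, varied little. It ranged from 6.95 to 14.5 CPM over 12 libraries, with 9.89 ± 1.37 CPM (SD, n = 6) in DRG and 10.9 ± 2.82 CPM (SD, n = 6) in TG. On the log2 scale TG over DRG was 0.14 ± 0.30 (SE; 95% interval -0.50 to 0.77; adjusted p = 0.989 by edgeR).

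**Figure D2:**
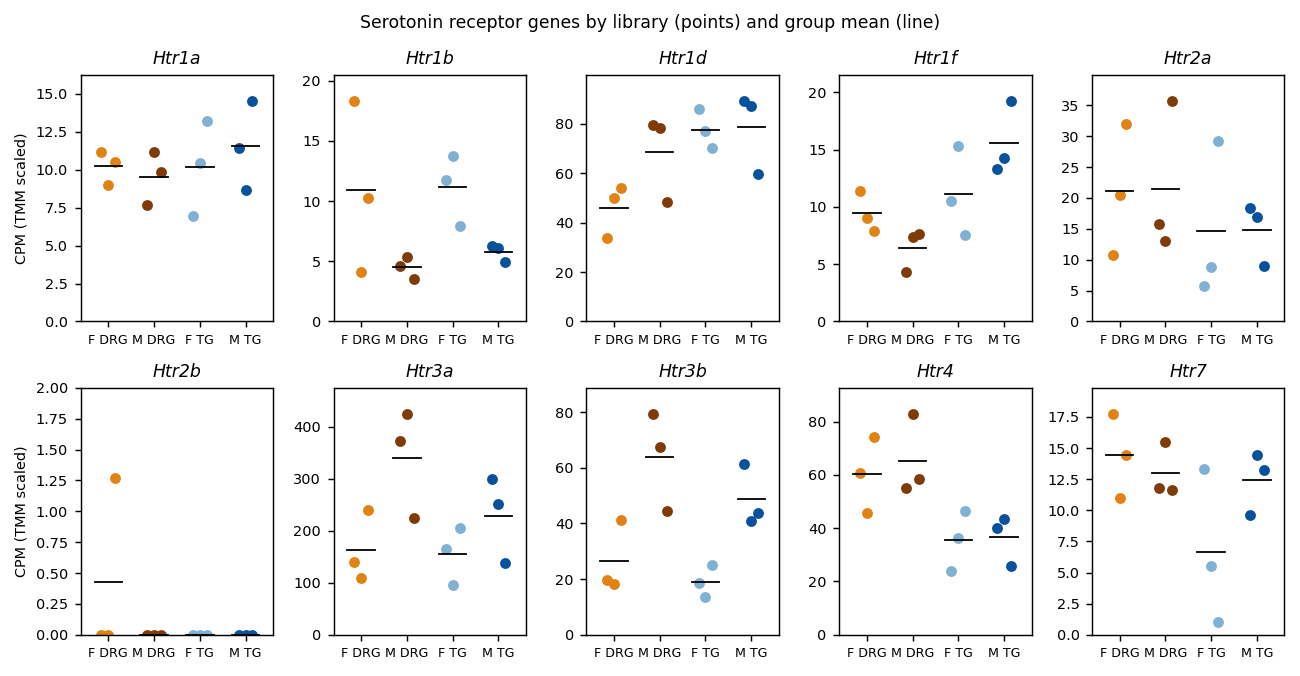
Scaled CPM of the 10 genes, each on its own axis from 0, with points for the 3 libraries of each group (F, female; M, male) and a line at the group mean. Htr4 lay between 45.8 and 82.7 CPM in DRG and between 24.0 and 46.3 CPM in TG, and Htr3b was higher in all male than in all female libraries of the same ganglion.

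Htr4, a Gs-coupled receptor best known for the control of gut motility, leaned toward DRG. It lies on chr18:62483858-62627456 on the plus strand of mm9. Its level was 60.8, 45.8 and 74.2 CPM in female DRG, 54.9, 82.7 and 58.3 CPM in male DRG, 24.0, 36.5 and 46.3 CPM in female TG, and 40.1, 43.5 and 25.9 CPM in male TG. The lowest DRG library fell just below the highest TG library, both from females, and otherwise the ganglia did not overlap. The mean was 62.8 ± 13.4 CPM (SD, n = 6) in DRG and 36.1 ± 9.21 CPM (SD, n = 6) in TG. The TG over DRG estimate was a log2 fold change of -0.80 ± 0.22 (SE; 95% interval -1.26 to -0.33), with an adjusted p of 0.120 by edgeR, which did not pass. With DESeq2 on the same genes the adjusted p was 0.0202 at a log2 fold change of -0.83, and the call was made. The adjusted p ran from 0.00671 to 0.9999 over the 23 alternatives, and 5 of them, DESeq2 included, made the call. Htr4 was lower in TG in all 23.

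Htr7, which also couples to Gs, was uneven within female TG. It ranged from 11.0 to 17.7 CPM in DRG and from 1.02 to 14.4 CPM in TG. The lowest values were female TG 3 with 13 reads and female TG 2 with 69 reads (5.54 CPM), against 106 to 209 reads in the other libraries. TG over DRG gave a log2 fold change of -0.59 ± 0.42 (SE; 95% interval -1.47 to 0.29; adjusted p = 0.814 by edgeR). It was -0.33 without female TG 3 and -1.09 without female TG 1, and was called in neither.

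Of the Gq-coupled members, Htr2a was found in all libraries and Htr2b in 1. Htr2a, the receptor through which serotonin contracts many arteries, gave 10.7, 20.4 and 32.0 CPM in female DRG, 15.8, 13.0 and 35.7 CPM in male DRG, 5.72, 8.75 and 29.2 CPM in female TG, and 18.4, 16.8 and 9.04 CPM in male TG. The highest value of 3 groups was that of the library numbered 3, and in male TG that library was the lowest. On the log2 scale TG over DRG was -0.54 ± 0.40 (SE; 95% interval -1.38 to 0.30; adjusted p = 0.839 by edgeR). It was -1.04 without female TG 3, and -0.35, -0.32 and -0.25 without female TG 1, female DRG 3 and male DRG 3, and was called in none of these. Htr2b, whose exons overlap Psmd1 on the opposite strand, had 15 reads in female DRG 3 and 0 reads in the other 11 libraries, so it was not tested.

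Both channel subunits gave lower TG estimates that did not pass. Htr3a and Htr3b are neighbours on the minus strand of chromosome 9 in mm9, Htr3a at chr9:48707319-48719204 and Htr3b at chr9:48743113-48773095, with 23908 bases between them. Htr3a gave 140.3, 109.9 and 239 CPM in female DRG, 374, 424 and 225 CPM in male DRG, 165, 96.2 and 205 CPM in female TG, and 299, 251 and 138 CPM in male TG. Its log2 fold change of TG over DRG was -0.32 ± 0.25 (SE; 95% interval -0.85 to 0.21; adjusted p = 0.867 by edgeR). Htr3b gave 19.6, 18.3 and 41.2 CPM in female DRG, 79.2, 67.5 and 44.4 CPM in male DRG, 18.6, 13.6 and 25.0 CPM in female TG, and 61.4, 40.7 and 43.8 CPM in male TG. Its log2 fold change was -0.43 ± 0.25 (SE; 95% interval -0.96 to 0.10; adjusted p = 0.712 by edgeR). Without female DRG 3 the estimates were -0.13 for Htr3a and -0.19 for Htr3b, and that of Htr3a was also -0.19 without female TG 2 or male TG 3.

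Between TG and DRG, then, no member was called at an adjusted p under 0.05 in the main fit by edgeR. Of the 10 members, 9 had enough reads for the test, and 0 of 9 were called. Of all genes tested, 0.627% were called toward TG and 0.337% toward DRG. At an unadjusted p under 0.05 there were 3 of 9, Htr1d and Htr1f toward TG and Htr4 toward DRG. Of all genes, 8.83% reached it in either direction. The members were chosen with earlier results of these data known, so these shares are a description only. The ranges of the 6 TG and 6 DRG libraries did not overlap for 0 members, against 1.36% of genes. The median log2 fold change over the 9 members was -0.32, and over all genes it was -0.01, with 4 members above 0 and 5 below. DESeq2 called 1 of 9, Htr4, where it called 1.21% of genes toward TG and 1.04% toward DRG.

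**Figure D3:**
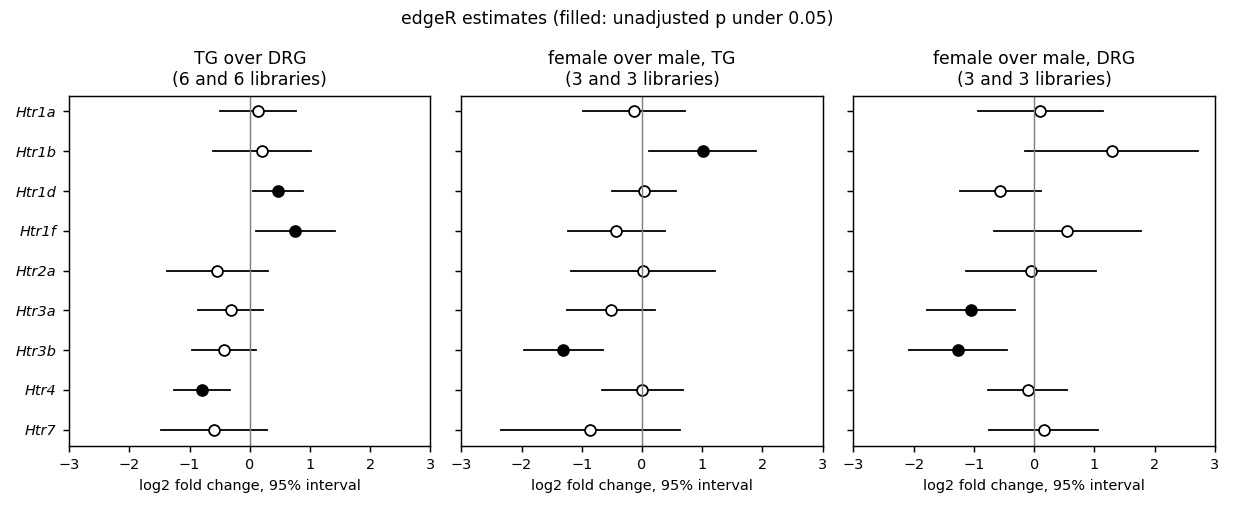
Log2 fold changes of 9 members by edgeR with 95% intervals, for TG over DRG and for female over male within TG and within DRG, where filled points have an unadjusted p under 0.05. Between ganglia the filled points are Htr1d, Htr1f and Htr4, and between sexes they are Htr1b and Htr3b in TG and Htr3a and Htr3b in DRG.

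The sexes were compared within each ganglion, which was the study's own question. Htr3b was lower in females in both ganglia. In TG it was 19.1 ± 5.72 CPM (SD, n = 3) in females and 48.7 ± 11.2 CPM (SD, n = 3) in males, and all 3 female libraries were below all 3 male libraries. The log2 fold change of female over male was -1.31 ± 0.30 (SE; 95% interval -1.97 to -0.65), with an adjusted p of 0.154 by edgeR over 14009 genes. In DRG it was 26.4 ± 12.9 CPM (SD, n = 3) in females and 63.7 ± 17.7 CPM (SD, n = 3) in males, again without overlap. There the log2 fold change was -1.26 ± 0.38 (SE; 95% interval -2.08 to -0.44), with an adjusted p of 0.308 by edgeR over 13963 genes. DESeq2 called Htr3b in both, with an adjusted p of 0.00996 in TG and 0.0440 in DRG.

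Htr3a followed the same direction. In DRG it was 163 ± 67.7 CPM (SD, n = 3) in females and 341 ± 103 CPM (SD, n = 3) in males. The difference of female over male was -1.05 ± 0.34 in log2 (SE; 95% interval -1.79 to -0.32; adjusted p = 0.315 by edgeR). The highest female DRG library was above the lowest male DRG library. DESeq2 called it with an adjusted p of 0.0371. In TG the log2 fold change was -0.52 ± 0.33 (SE; 95% interval -1.24 to 0.21; adjusted p = 0.388 by edgeR). The RPKM of Htr3a was 6.72 to 8.28 times that of Htr3b in female DRG, 5.46 to 7.27 times in male DRG, 8.21 to 10.3 times in female TG and 3.64 to 7.14 times in male TG.

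The channel subunits varied together over the libraries. Htr3a and Htr3b had Pearson's r = 0.88 over 12 libraries (permutation p = 0.00027, adjusted p = 0.00972 over 36 pairs of members) and Spearman's rho = 0.84 (permutation p = 0.00112, adjusted p = 0.0403), on log2 CPM. Without the 2 libraries farthest from the median of Htr3a, r was 0.82. Within the 6 female libraries r was 0.90, and within the 6 male libraries it was 0.79. With the mean of each group removed, r was 0.85. The permutations moved all 12 libraries freely, so differences between groups enter the p-values. Htr3a with Htr3b was the 1 pair of 36 with an adjusted p under 0.05.

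Both subunits also varied with the summed levels of cell type markers. Over 72 relations of 9 members to 8 marker sums, 6 had an adjusted p under 0.05 by Pearson's r, and all 6 were of Htr3a or Htr3b. Htr3a rose with the neuron markers (r = 0.90, rho = 0.83; permutation p = 0.00018 and 0.0015; adjusted p = 0.00378 and 0.027) and fell with the endothelial markers (r = -0.92, rho = -0.87; permutation p = 8e-05 and 0.00047; adjusted p = 0.00288 and 0.0113). Htr3b fell with the macrophage markers (r = -0.90, rho = -0.94; permutation p = 3e-05 and 4e-05; adjusted p = 0.00216 and 0.00288). Without the 2 libraries farthest in the marker sum, these r were 0.88, -0.84 and -0.91. Within the female libraries they were 0.83, -0.86 and -0.97, and within the male libraries 0.96, -0.87 and -0.68. With group means removed they were 0.85, -0.86 and -0.84. The remaining 3 were Htr3a with macrophage markers (r = -0.88, rho = -0.91), Htr3b with endothelial markers (r = -0.84, rho = -0.78) and Htr3b with neuron markers (r = 0.79, rho = 0.71). The last 2 did not pass by Spearman's rho, with permutation p-values adjusted to 0.0549 and 0.1055. The macrophage sum was 162 to 318 CPM in female TG and 55.3 to 161 CPM in male TG, and 104 to 252 CPM in female DRG and 83.6 to 118 CPM in male DRG. The neuron sum was 5181 to 7336 CPM in female TG, 5322 to 7601 CPM in male TG, 4846 to 8588 CPM in female DRG and 7251 to 8798 CPM in male DRG. The 8 neuron markers did not move together between the sexes. Their log2 fold changes of female over male by edgeR spanned -0.78 to 0.96 within TG. Within DRG the span was -0.76 to 1.05. In each ganglion 1 neuron marker was higher in females and 1 in males at an unadjusted p under 0.05. The neuron sum therefore need not stand for each marker, and relations to single markers were not tested. The part of the marker sums in the sex difference of Htr3a and Htr3b was not tested.

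**Figure D4:**
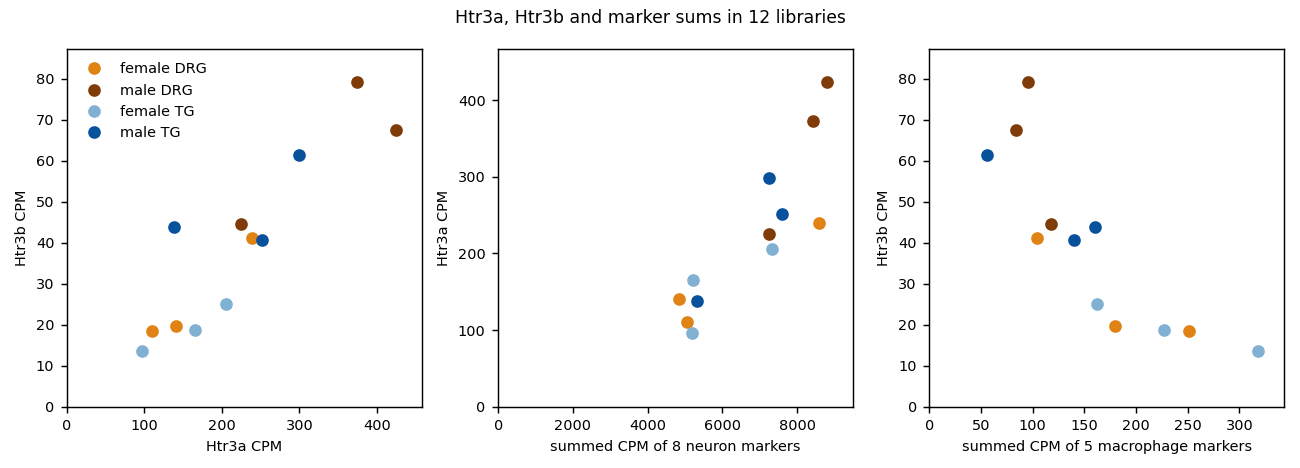
Scaled CPM of Htr3a and Htr3b in 12 libraries, plotted against each other (left), Htr3a against the summed CPM of 8 neuron markers (middle) and Htr3b against the summed CPM of 5 macrophage markers (right), coloured by group. Htr3b was above 60 CPM in 3 male libraries, all with a macrophage sum under 100 CPM.

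Htr1b had the opposite direction. In TG it was 11.2 ± 2.94 CPM (SD, n = 3) in females and 5.76 ± 0.739 CPM (SD, n = 3) in males, without overlap, with a log2 fold change of 1.01 ± 0.41 (SE; 95% interval 0.11 to 1.90; adjusted p = 0.207 by edgeR). In DRG it was 10.9 ± 7.13 CPM (SD, n = 3) in females and 4.49 ± 0.904 CPM (SD, n = 3) in males, and female DRG 2 lay within the male range. The log2 fold change in DRG was 1.29 ± 0.66 (SE; 95% interval -0.15 to 2.72; adjusted p = 0.467 by edgeR). Without female DRG 1 it was 0.68. Of the other triptan targets, Htr1d gave a log2 fold change of female over male of 0.03 ± 0.24 (SE) in TG and -0.56 ± 0.31 in DRG. Htr1f gave -0.43 ± 0.37 in TG and 0.55 ± 0.57 in DRG, where its 3 female libraries were above its 3 male libraries. Differences between the genes in this respect were not tested.

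No member was called by sex at an adjusted p under 0.05 by edgeR, 0 of 9 in each ganglion. Over all genes, edgeR called 0.00714% higher in females and 0.0286% higher in males in TG, and 0.00716% and 0.0286% in DRG. An unadjusted p under 0.05 was reached by 2 of 9 members in each ganglion, against 20.7% of genes in TG and 11.8% in DRG. Ranges did not overlap for 2 members in TG, Htr1b and Htr3b, and for 2 in DRG, Htr1f and Htr3b, against 23.8% and 17.5% of genes. The median log2 fold change over the 9 members was -0.14 in TG and -0.05 in DRG, and over all genes it was 0.05 and 0.02. Criteria of the study's kind were here a fold change above 2, unadjusted p under 0.05 and mean above 1 CPM in the higher sex. The study itself set RPKM above 1 and tested with DESeq, where CPM and edgeR were used here. By these criteria, Htr1b was higher in females and Htr3b in males in TG, and Htr3a and Htr3b in males in DRG. All genes met these criteria at 5.15% for females and 2.26% for males in TG, and at 2.01% and 2.96% in DRG. DESeq2 called 1 member in TG, where it called 2.42% of genes higher in females and 2.96% higher in males. In DRG it called 2 members, where the shares were 0.265% and 2.03%. It gave no adjusted p in DRG for Htr1a, Htr1b, Htr1f, Htr2a and Htr7, so these could not be called. These shares count genes without an adjusted p as not called.

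The sex results depended on the libraries, the scaling, the model and a correction for gene composition. Without female TG 3, edgeR called 3394 genes by sex in TG instead of 5, among them Htr3b (adjusted p = 0.00680) and Htr1b (adjusted p = 0.0388). With an offset for GC content and exon length, no member met the study's kind of criteria in TG, while in DRG Htr1b and Htr1f met them in females and no member did in males. Without TMM factors, Htr1b met them in females and Htr3a no longer did in males in DRG. In the model of all 12 libraries, Htr1b no longer met them in TG and met them in DRG. With a library left out, Htr3b met these criteria in both ganglia each time. Htr3a in DRG no longer met them without female DRG 1, female DRG 2, male DRG 1 or male DRG 2. Htr1b in TG met them without female TG 3 but not without any of the 5 other TG libraries. The share of reads outside genes, among reads assigned to a gene or to none, also differed by sex in DRG. It was 46.4% to 50.4% in female DRG and 38.2% to 42.6% in male DRG, without overlap. In TG it was 43.5% to 49.1% in females and 37.6% to 47.9% in males. Its part in the sex differences was not tested.

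Whether the sex difference itself differed between ganglia was tested as an interaction over all 12 libraries. No member was called by edgeR or DESeq2, where 0% of genes were called in either direction by either tool, and 0 of 9 members had an unadjusted p under 0.05 by edgeR, against 1.97% of genes. For Htr3b, the female over male log2 fold change in TG minus that in DRG was -0.08 ± 0.50 (SE; 95% interval -1.13 to 0.97). For Htr1f it was -1.03 ± 0.62 (SE; 95% interval -2.33 to 0.27; adjusted p = 0.9998 by edgeR).

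Each member was set against 14828 other genes by the correlation of log2 CPM over the 12 libraries, as a description of which profiles were alike. The closest to Htr3a were Cpeb1 and Pgm2 (both r = 0.97), and the closest to Htr3b were Atad1 (r = 0.97) and Atp6v1h (r = 0.96). Htr4 was most like Aqp1 (r = 0.95), a water channel, and Pea15a (r = 0.92). Htr1d was most like Hsdl1 (r = 0.95) and Rab4a (r = 0.94), Htr1f like Agbl4 (r = 0.89) and Tbc1d4 (r = 0.86), and Htr1b like Cd276 and Gm16023, a transcript with a median of 0.219 CPM (r = 0.90 and 0.89). Htr2a was most like Gpr35 (r = 0.95) and Acpp (r = 0.91), and Htr1a like Odf2l (r = 0.79) and Tcea1 (r = 0.78). For Htr7 they were Zfp964 and Gcnt4 (both r = 0.96), where Spearman's rho was only 0.44 and 0.62. For the other members rho ran from 0.65 (Htr1a with Odf2l) to 0.96 (Htr3a with Cpeb1).

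Of the other receptors of the family, Htr5b had a median of 3.09 RPKM, above Htr1a in 10 of 12 libraries, and Htr5a had 1.18 RPKM, and neither was called between TG and DRG. Htr2c had 0 to 23 reads per library, and Htr6 had 9 reads in female TG 1, 15 reads in male DRG 1 and 0 in the other 10. Of 12 genes for serotonin synthesis, transport and breakdown, 11 were listed and 8 tested, with none called, and the highest were the breakdown enzymes Maoa (38.5 RPKM) and Maob (3.35 RPKM) and the transporter Slc29a4 (2.45 RPKM).

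No tested gene of the lists that act beside or below the receptors was called between ganglia. None of 16 tested receptor partners was called, and the highest were the receptor adaptor S100a10 (824 RPKM) and the G protein regulators Rgs4 (751 RPKM) and Rgs10 (139 RPKM). None of 10 tested genes of Gi/o coupling was called, with Gnai3 (54.9 RPKM), Gnai2 (40.8 RPKM) and Gnai1 (28.8 RPKM) on top. For Gq coupling it was none of 12, with the G protein subunits Gna14 (63.6 RPKM) and Gnaq (44.1 RPKM) and the phospholipase Plcb3 (38.8 RPKM) on top. For Gs coupling it was none of 15, with the protein kinase A subunits Prkar1a (440.4 RPKM), Prkacb (94.6 RPKM) and Prkar2b (53.3 RPKM) on top. The median log2 fold change of TG over DRG in these lists was -0.13 for the other receptors, -0.17 for synthesis, transport and breakdown, -0.08 for partners, 0.04 for Gi/o, -0.25 for Gq and 0.07 for Gs.

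The list of transmitters and targets of the trigeminovascular system, the afferents of cranial vessels on which triptans act, was the only list of these 7 with genes called. Of 16 tested genes, edgeR called 1 toward TG and 2 toward DRG, against 0.627% and 0.337% of all genes, and the list's median log2 fold change was -0.22. The list was chosen with earlier results of these data known. Calcb, which encodes beta CGRP, was 188.6 to 551 CPM in DRG and 77.8 to 280 CPM in TG, and TG over DRG was -1.10 ± 0.21 in log2 (SE; adjusted p = 0.0132 by edgeR). Sstr1, a somatostatin receptor, was 7.62 to 13.2 CPM in DRG and 1.06 to 2.17 CPM in TG without overlap, and TG over DRG was -2.84 ± 0.43 in log2 (SE; adjusted p = 0.00142 by edgeR). Vip, a vasodilator peptide, was called higher in TG (adjusted p = 0.0244 by edgeR) on uneven counts, from 0 to 1961 reads in TG with 2 of 6 libraries at 0, and from 0 to 7 reads in DRG.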

How the data were processed

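RNA of 12 Percoll-enriched neuron fractions had been depleted of ribosomal RNA and sequenced as single reads. Per the labels and the study's methods, the authors aligned reads to mm9 with TopHat2 and counted them per gene with HTSeq, and the deposited values are raw read counts of each library. The counting version, annotation and strand setting are not given in the sources used here. Counts were tested with edgeR 4.0.16 (quasi-likelihood, TMM scaling, filterByExpr, Benjamini-Hochberg adjustment over all genes tested), called at an adjusted p under 0.05. TG against DRG and the interaction used a mean for each of 4 groups, and the sexes were compared in the 6 libraries of a ganglion. DESeq2 1.42.0 was an alternative. Lines for reads outside genes stayed out, which were 37.6% to 50.4% of the reads assigned to a gene or to none. Lines for ambiguous, low-quality, unaligned and multiply aligned reads also stayed out. Scaled CPM was divided by exon length from GENCODE vM1 (mm9) for RPKM, and log2 CPM used a prior count of 2. The scripts were tested on simulated data. The members, the 7 lists of pathway genes and the 9 of markers were chosen with earlier results of these data known. Genes outside the members were named when called between ganglia or among the 3 highest of their list per length, or as the 2 closest profiles. Motif shares leave out promoters on chromosome 18. Relations used 100000 permutations of the 12 libraries, moved freely across groups.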

Additional observations from a re-analysis of the deposited data

Results flagged for a closer look

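In 3 of the 6-library sets of a ganglion, a single library lay far from the others by Dixon's ratio, and 27 sets were examined. In each of the 3 the other libraries were at 0, so any read in the remaining library gives the same ratio, and the chance rate of about 1 in 20 sets does not apply. Htr2b was at 1.27 CPM in female DRG 3 (15 reads) and at 0 in the other DRG libraries. Htr6 was at 0.792 CPM in female TG 1 (9 reads) and at 1.40 CPM in male DRG 1 (15 reads), and at 0 in all others.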

How the results depend on the processing

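The calls were few and moved with the setting. Higher in DRG, 1 member (Htr4) was called instead of 0 with DESeq2, without female DRG 1 and female TG 3 together, and with libraries numbered 1 and 2 only. In the last, 1 member (Htr1d) was called higher in TG, and Htr1a turned to a log2 fold change of -0.054 from 0.14, the only reversal. By sex in TG, 1 member was called with DESeq2, 2 with the study's kind of criteria, 2 without female DRG 1 and female TG 3 together, and 4 with libraries numbered 1 and 2 only. By sex in DRG, 2 were called with DESeq2, with those criteria and with libraries numbered 1 and 2 only. Leaving out each library in turn gave 0 called members between ganglia, in the interaction and by sex in DRG, and 0 to 2 by sex in TG, where the 2 came without female TG 3. The cause was not tested. Over all genes, TG against DRG gave 143 calls, 333 with DESeq2, 814 with libraries numbered 1 and 2 only, 231 without female TG 3, and 77 to 94 without female TG 1, female TG 2, male DRG 2 or any male TG library. By sex, edgeR gave 5 calls in each ganglion, DESeq2 753 in TG and 320 in DRG, and libraries numbered 1 and 2 only 6251 and 1418.

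The replicate number was tried as a block. Same-numbered TG and DRG libraries of a sex had correlations of 0.03 to 0.22 in their deviations from the group means. Same-numbered female and male libraries had -0.10 to 0.17. Of 12 libraries, 8 correlated best with their own number across ganglia and 6 across sexes, each chosen among 3 libraries. The labels do not say whether the numbers mark shared animals or a shared day. The main fits did not pair the libraries, and these correlations do not settle whether they are paired. With the block, 1 member (Htr4, adjusted p = 0.00671) was called higher in DRG and 562 genes in all. With the block and the GC and length offset it was again 1 (adjusted p = 0.0102). No member was called by sex under the block, and by the study's kind of criteria Htr1b in TG no longer passed. Depth limits Htr2b, Htr2c and Htr6, which had too few reads for a test.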
